A study of Mus musculus with 12 samples.

Results

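The 34 genes described here encode glucose and lactate transporters, the enzymes of glycolysis and of the pentose phosphate pathway, regulators of glycolysis and of pyruvate use, and the transcription factors Myc and Hif1a with oxygen sensors and genes that respond to hypoxia-inducible factor (HIF). They were listed by name for these roles. Of the 34, 30 had a probe set that carries their symbol alone, among 19938 genes measured that way on 12 mouse gene arrays. Gapdh appeared only in 25 probe sets that list several symbols, and Gpi1, Eno1 and G6pdx had no probe set under these symbols, so these 4 genes were not analysed here.

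The arrays held RNA of donor CD4+ T cells on day 2 of a graft-versus-host response, in which T cells of C57Bl/6 mice respond against B6D2F1 hosts, an F1 hybrid strain with C57Bl/6 as a parent. Each host received CFSE-stained spleen cells holding 40000000 T cells on day 0, and both strains were bought at 10 to 12 weeks of age. The TCDD hosts were given TCDD at 15 µg/kg once, on day 0. The Cl-BBQ hosts were given Cl-BBQ at 2 mg/kg on day 0 and again on day 1, and the vehicle hosts were given vehicle alone on the same days as Cl-BBQ. All doses went into the peritoneum, and each group has 4 arrays. At 48 hr, cells that had diluted CFSE, a dye shared out at each division, through at least 2 divisions were isolated from spleen and lymph node with CD4 beads and a flow sorter. The labels call the arrays of a group biological replicates, do not say whether cells of several hosts were pooled, and name no irradiation of the hosts. TCDD and Cl-BBQ differed in dose and schedule, and TCDD and vehicle differed in schedule, so compound and regimen cannot be told apart.

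T cells that start to divide are known to take up more glucose and to break it down to lactate even when oxygen is present, a programme that Myc and HIF-1 drive in activated lymphocytes. The pentose phosphate pathway branches off glycolysis and yields NADPH and the ribose of nucleotides. HIF-1 is a pair of proteins, HIF-1α and ARNT; oxygen-dependent prolyl hydroxylases mark HIF-1α for destruction. TCDD, a persistent dioxin, and Cl-BBQ both activate the aryl hydrocarbon receptor (AhR), which binds DNA with the same partner, ARNT. The comparisons below ask how far host treatment with either compound altered the transcripts of this programme in the dividing donor cells.

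All values are log2 intensities as the authors normalised them, so a difference of 1 is a 2-fold difference, and levels of different genes are not compared because probes differ in brightness. A gene was called where the limma p adjusted over all 19938 genes was under 0.05, and intervals are at the 95% level. In a bulk sample, fewer cells of a type and less RNA per cell cannot be told apart. The treatment itself was visible in known AhR targets: 5 of 5 (Cyp1a1, Cyp1b1, Ahrr, Tiparp and Nqo1) were called higher with TCDD. Cyp1b1 led them, at a log2 difference of 3.49. With Cl-BBQ 0 of 5 were called, but all 5 averaged above vehicle, by 0.18 to 1.13. By limma 4 of the 5 had an unadjusted p under 0.05 with Cl-BBQ (7.91% of all genes). In Ahrr (0.39) and Nqo1 (0.83) every Cl-BBQ array lay above every vehicle array (2.27% of all genes). In Cyp1b1, 1.13 above vehicle on average, Cl-BBQ replicate 3, at 5.93, lay below the vehicle arrays. T cell genes, of which Cd4 alone marks the CD4+ subset, were bright. The 8 measured averaged 11.8 to 13.0, and none was called. The mean of their log2 values on each array was 12.5 to 12.6 in TCDD, 12.5 to 12.7 in Cl-BBQ and 12.5 to 12.6 in vehicle arrays. For 9 B cell markers that mean was 6.50 to 6.64, 6.56 to 6.62 and 6.62 to 6.81 in the same order. Cd22 and Bank1 were called lower with TCDD (0.366% of all genes). The markers did not move together, since 5 of the 9 averaged higher with TCDD and their median log2 difference was 0.0. Cd79a, Ms4a1, Blk, Cr2 and Fcer2a averaged 5.07 to 6.60 in vehicle arrays, below the array medians of 7.11 to 7.24. A fall in such dim genes could be missed. Cd79b and Pax5, at 7.54 and 7.25 in vehicle arrays, averaged higher with TCDD. For the 2 CD8 genes the list mean was 8.37 to 8.70, 8.32 to 8.54 and 8.36 to 9.18, the last in vehicle replicate 2. That array was also the highest of all 12 for the B cell markers, at 6.81, and for the NK markers, at 6.39. No marker of myeloid and dendritic cells (11 measured), NK cells (5), neutrophils (6), platelets (4) or erythroid cells (3) was called with either compound against vehicle. The part of such cells in the differences below was not tested.

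A single vehicle array stood apart in these genes before any comparison. Vehicle replicate 1 was the highest of its group in 21 of the 30 genes, whereas it was so in 24.9% of all genes. Its median over the 30 genes was 0.10 above the vehicle mean, against 0.01 over all genes. Leaving it out moved many of the differences from vehicle given below. In each of those 21 genes it must raise the difference, because the array left out is the highest. The values without it show how far a result rests on this array and are no separate support for a change. The values without it stand beside the genes whose difference changed most or whose call it touches. Without it 22 of the 30 differences were above 0 with TCDD (53.1% of all genes) and 17 with Cl-BBQ (55.3%).

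Promoters are shown for the genes with the smallest unadjusted p that have an entry in the RefSeq table (build GRCm38.p6), as the 250 bases before the transcription start. Capitals mark 3 motifs. The letters ACGTG, which read CACGT on the other strand, are the usual core of a hypoxia response element. The letters GCGTG, which read CACGC on the other strand, are the core of the AhR element. The letters CACGTG are the E-box read by Myc. The motifs share letters: CACGTG holds ACGTG on both strands, and HIF-1 is also known to bind GCGTG. Myc itself, which had the smallest p, has no entry.
P4ha1 (chr10:59323046-59323295, plus strand): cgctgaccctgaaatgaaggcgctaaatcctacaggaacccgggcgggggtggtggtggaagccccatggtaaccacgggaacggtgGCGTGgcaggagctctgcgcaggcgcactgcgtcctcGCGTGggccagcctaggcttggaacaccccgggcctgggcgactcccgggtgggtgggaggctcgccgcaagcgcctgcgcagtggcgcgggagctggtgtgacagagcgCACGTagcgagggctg
Slc2a1 (chr4:119108495-119108744, plus strand): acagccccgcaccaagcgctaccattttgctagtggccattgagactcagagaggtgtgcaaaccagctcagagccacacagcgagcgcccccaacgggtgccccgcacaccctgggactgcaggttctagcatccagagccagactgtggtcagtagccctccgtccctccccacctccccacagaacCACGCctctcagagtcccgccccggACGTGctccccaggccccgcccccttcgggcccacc
Pfkfb4 (chr9:108991652-108991901, plus strand): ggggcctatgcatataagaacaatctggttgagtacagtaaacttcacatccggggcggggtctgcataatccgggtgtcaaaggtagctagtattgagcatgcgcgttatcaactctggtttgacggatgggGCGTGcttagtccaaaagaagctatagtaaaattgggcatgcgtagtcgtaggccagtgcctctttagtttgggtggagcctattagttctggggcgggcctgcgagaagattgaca
Slc16a1 (chr3:104638414-104638663, plus strand): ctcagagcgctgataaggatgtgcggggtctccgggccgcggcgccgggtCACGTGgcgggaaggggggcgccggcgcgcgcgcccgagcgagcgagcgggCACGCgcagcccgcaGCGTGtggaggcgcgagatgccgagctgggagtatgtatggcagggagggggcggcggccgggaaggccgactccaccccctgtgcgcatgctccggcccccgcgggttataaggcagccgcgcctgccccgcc

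The P4ha1 window holds ACGTG on the minus strand 16 bases before the start and GCGTG on the plus strand at 163 and 126. In Slc2a1, ACGTG lies at 36 on the plus strand and GCGTG at 61 on the minus strand. Pfkfb4 has GCGTG alone, at 117. Slc16a1 has the E-box at 200 and GCGTG at 149 on the minus and at 134 on the plus strand. Counted over both strands, 28 of the 30 genes had 41 windows, and Slc2a3, like Myc, had none. ACGTG was found in 20 of the 41 (48.8%, against 16.6% of all 32851 windows in the table and 17.8% of 21263 windows of coding genes). GCGTG was found in 22 (53.7%, against 28.2% and 33.8%), and CACGTG in 6 (14.6%, against 6.02% and 6.63%). The windows of these genes were also richer in G and C, with a median of 60.4% against 52.4% and 55.6%, and several windows belong to the same gene. A match of letters is a description and not evidence of binding.

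Neither compound gave a called difference in any of the 30 genes, and the differences were small. With TCDD against vehicle 0 of 30 were called (1.24% of all genes), with Cl-BBQ against vehicle 0 of 30 (0.196%), and with TCDD against Cl-BBQ 0 of 30 (0.015%; with the replicate number as a block, 5 in place of 3 of all genes and again 0 of the 30). At an unadjusted p under 0.05, the limma fit gave 3 of 30 with TCDD (Slc2a1, Pfkfb4 and Myc; 8.69% of all genes) and 5 of 30 with Cl-BBQ (Slc2a1, Slc16a1, Tkt, Myc and P4ha1; 7.91%). Between the compounds it gave 0 of 30 (2.99%), and the arrays of the compounds did not separate in any of the 30 (1.24% of all genes separated with TCDD higher and 0.797% with TCDD lower). The median log2 difference over the 30 genes was 0.02 with TCDD (0.004 over all genes), −0.00 with Cl-BBQ (0.011) and 0.02 between the compounds (−0.003).

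The intervals bound the difference in intensity that could have been missed. All 30 lay within 1.5-fold either way with TCDD (97.8% of all genes), and so did 29 with Cl-BBQ (98.4%), the exception being Hk2, and all 30 between the compounds (99.2%). Within 1.25-fold lay 22 with TCDD (82.2% of all genes), 22 with Cl-BBQ (82.1%) and 27 between the compounds (88.1%). With TCDD the 8 outside this narrower bound were Slc2a1, Slc2a3, Slc16a1, Hk2, Aldoc, Pfkfb4, Myc and Egln3. The half-width of the interval had a median of 0.16 and ran from 0.06 for Ldha to 0.38 for Hk2. The spread was ordinary for these arrays: the within-group SD had a median of 0.117 over the 30 genes and 0.110 over all genes, and 14 of the 30 were below the median of all genes.

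**Figure D1:**
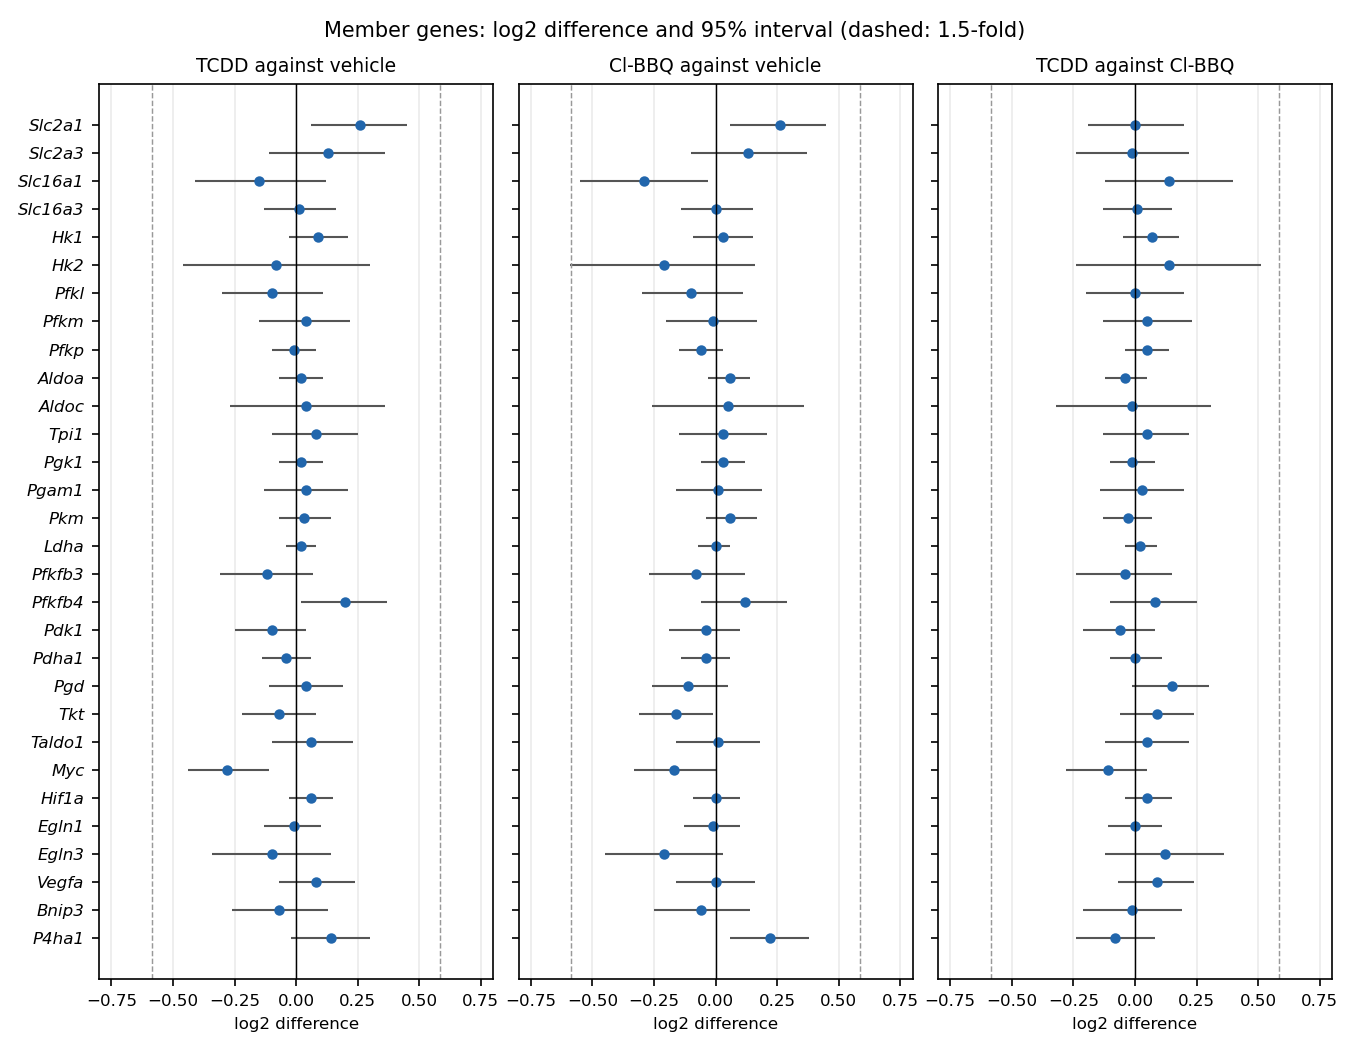
Log2 difference (point) and 95% interval (line) of the 30 measured genes, in rows ordered by role, with a panel for each compound against vehicle and another for TCDD against Cl-BBQ; dashed lines mark 1.5-fold. Points run from −0.28 for Myc to 0.26 for Slc2a1 with TCDD, and only the interval of Hk2 with Cl-BBQ crosses a dashed line.

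Of the 4 transporters, Slc2a1, which encodes GLUT1, the main glucose importer of dividing T cells, averaged higher with both compounds. Its probe set (10507594) read 10.60, 10.63, 10.54 and 10.72 in TCDD arrays, against 10.68, 10.33, 10.30 and 10.16 in vehicle arrays. The 4 TCDD values lie close together, the vehicle values are spread widely, and vehicle replicate 1 lies among the TCDD arrays. The log2 difference was 0.26 (interval 0.06 to 0.45; 1.20-fold; adjusted p = 0.323 by limma). In Cl-BBQ arrays Slc2a1 read 10.58, 10.70, 10.71 and 10.50, a difference of 0.26 from the same vehicle arrays (interval 0.06 to 0.45; limma adjusted p = 0.463). Without vehicle replicate 1 the difference was 0.36 with TCDD, which was then called (limma adjusted p = 0.0271), and 0.36 with Cl-BBQ, which was not (limma adjusted p = 0.096). Leaving out the highest vehicle array had to raise both differences, so this call is no separate support. Over all alternatives tried, the adjusted p of Slc2a1 ran from 0.0271 to 0.72 with TCDD and from 0.096 to 0.931 with Cl-BBQ. Both comparisons share the vehicle arrays. TCDD and Cl-BBQ arrays differed by 0.00 (interval −0.19 to 0.20).

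Slc16a1 encodes MCT1, a carrier of lactate and pyruvate. It read 8.76, 8.58, 8.93 and 8.27 in Cl-BBQ arrays, against 9.22, 8.77, 8.78 and 8.92 in vehicle arrays. The groups overlap, and Cl-BBQ replicate 4 and vehicle replicate 1 are the extremes. The difference was −0.29 (interval −0.55 to −0.03; 1.22-fold lower; limma adjusted p = 0.589) and came to −0.19 without vehicle replicate 1. With TCDD, where the arrays read 8.71 to 8.83, it was −0.15 (interval −0.41 to 0.12), and −0.05 without vehicle replicate 1. Slc2a3 encodes GLUT3, a second glucose importer of lymphocytes, and differed from vehicle by 0.13 with TCDD (interval −0.11 to 0.36) and by 0.13 with Cl-BBQ (interval −0.10 to 0.37). Slc16a3, the lactate exporter MCT4, differed by 0.01 (interval −0.13 to 0.16) and 0.00 (interval −0.14 to 0.15).

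The 12 glycolytic enzymes measured held both Ldha, with the narrowest interval of the 30 genes, and Hk2, with the widest. The enzymes' differences from vehicle ran from −0.10 to 0.09 with TCDD, with 9 of 12 above 0 (52.1% of all genes). With Cl-BBQ they ran from −0.21 to 0.06, with 7 of 12 above 0 (54.8%). In the limma fit 0 of 12 had an unadjusted p under 0.05 with either compound. Without vehicle replicate 1 the differences ran from 0.00 to 0.14 with TCDD, with 0 of 12 below 0 (53.1% of all genes were above 0). With Cl-BBQ they ran from −0.11 to 0.11, with 9 of 12 above 0 (55.3%). In that fit none was called, and an unadjusted p under 0.05 was reached by 0 of 12 with TCDD (7.39% of all genes) and by 2 with Cl-BBQ (5.94%), Aldoa and Pkm. Ldha, the lactate dehydrogenase chain that turns pyruvate into lactate, read 13.37 to 13.47 in TCDD, 13.38 to 13.42 in Cl-BBQ and 13.33 to 13.46 in vehicle arrays. Its difference was 0.02 with TCDD (interval −0.04 to 0.08) and −0.00 with Cl-BBQ (interval −0.07 to 0.06). With TCDD the interval excludes a change in intensity of more than 1.06-fold in either direction. How intensity follows transcript amount in such bright probe sets was not tested. Pkm, pyruvate kinase, differed by 0.03 (interval −0.07 to 0.14) with TCDD and 0.06 (interval −0.04 to 0.17) with Cl-BBQ, and Aldoa, the main aldolase of most cells, by 0.02 (interval −0.07 to 0.11) and 0.06 (interval −0.03 to 0.14). Without vehicle replicate 1, the difference of Aldoa was 0.07 with TCDD and 0.10 with Cl-BBQ (limma unadjusted p = 0.0072), and that of Pkm was 0.07 and 0.11 (limma unadjusted p = 0.0384).

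Hk2 encodes an inducible hexokinase, the enzyme that traps glucose in the cell. It read 8.29, 8.09, 8.28 and 8.10 in TCDD arrays, 8.43, 7.72, 8.50 and 7.57 in Cl-BBQ arrays and 8.59, 8.08, 8.08 and 8.32 in vehicle arrays. The Cl-BBQ arrays form a high and a low pair, with replicates 2 and 4 below every other array. Hk2 accordingly had the largest within-group SD of the 30 genes, 0.315, and differed from vehicle by −0.21 with Cl-BBQ (interval −0.59 to 0.16) and by −0.08 with TCDD (interval −0.46 to 0.30). Without vehicle replicate 1, its highest array, these were −0.11 and 0.03. The phosphofructokinase genes, whose product commits sugar to glycolysis, differed by −0.10 (Pfkl), 0.04 (Pfkm) and −0.01 (Pfkp) with TCDD and by −0.10, −0.01 and −0.06 with Cl-BBQ. Vehicle replicate 1 read 9.25 for Pfkl, above the 8.77 to 8.93 of the other vehicle arrays, and without it Pfkl differed by 0.00 with both compounds, and Pfkm by 0.08 with TCDD and 0.03 with Cl-BBQ. Aldoc, the brain-type aldolase, was spread in both treated groups, at 7.65 to 8.38 in TCDD and 7.55 to 8.25 in Cl-BBQ arrays, and tight in vehicle arrays, at 7.92 to 7.98. Tpi1, triose phosphate isomerase, and Pgam1, phosphoglycerate mutase, differed from vehicle by 0.08 and 0.04 with TCDD and by 0.03 and 0.01 with Cl-BBQ, and without vehicle replicate 1 by 0.14 and 0.11 with TCDD and by 0.09 in both genes with Cl-BBQ.

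For some of these genes the probe set may not read the gene alone. The brightest probe set under Hk1, a hexokinase made in most cells, lists 1 record, and all 16 several-symbol probe sets that name both Hk1 and Rpl17 list that record too; 0 of its 12 neighbours in probe set numbering lie on chromosome 10, where Hk1 is. It gave 0.09 with TCDD (interval −0.03 to 0.21) and 0.03 with Cl-BBQ (interval −0.09 to 0.15), and 0.05 and −0.02 without vehicle replicate 1. The other Hk1 probe set (10369541), with 12 of 12 neighbours on chromosome 10, averaged 10.84 ± 0.08 in TCDD, 10.79 ± 0.12 in Cl-BBQ and 10.71 ± 0.09 in vehicle arrays (SD, n = 4 each), which gave 0.13 (interval −0.02 to 0.27) and 0.08 (interval −0.07 to 0.23). Pgk1, phosphoglycerate kinase, is on chromosome X, and the chosen probe set has 0 of 12 neighbours there; it gave 0.02 with TCDD and 0.03 with Cl-BBQ, and so did the Pgk1 probe set whose neighbours all lie on X. Pgam1 has a second probe set with the same values in every array.

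**Figure D2:**
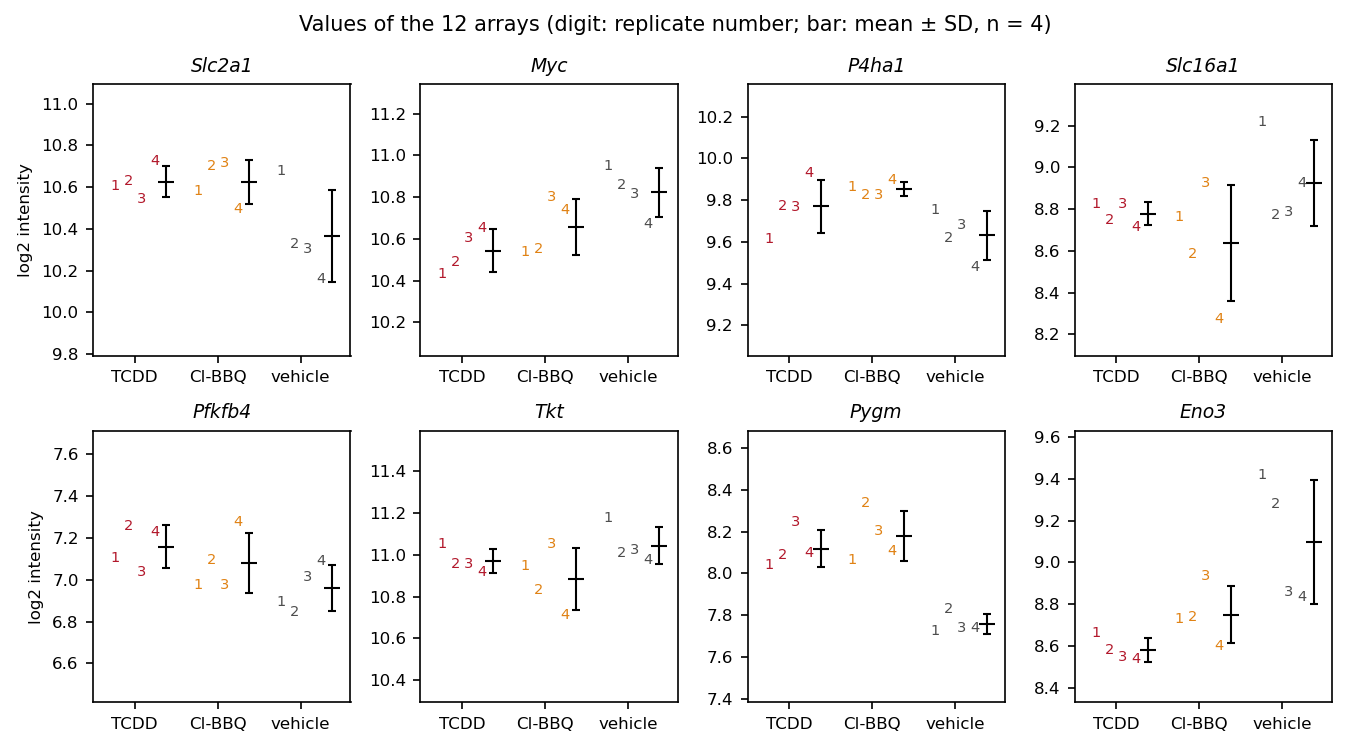
Log2 intensity of Slc2a1, Myc, P4ha1, Slc16a1, Pfkfb4 and Tkt and of the pathway genes Pygm and Eno3 on each of the 12 arrays, by group; digits are replicate numbers and bars are mean ± SD (n = 4), on axes that do not start at 0. All TCDD arrays lie below all vehicle arrays in Myc, and all Cl-BBQ arrays lie above them in P4ha1. Vehicle replicate 1 is the highest vehicle array in Slc2a1, Myc, P4ha1, Slc16a1, Tkt and Eno3.

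Of the 4 genes that regulate glycolysis and pyruvate use, Pfkfb4 had the largest difference. It encodes a kinase and phosphatase that sets fructose 2,6-bisphosphate, the activator of phosphofructokinase. It read 7.11, 7.26, 7.04 and 7.23 in TCDD arrays, against 6.89, 6.85, 7.01 and 7.09 in vehicle arrays. The groups overlap, since vehicle replicate 4 lies above TCDD replicate 3. Pfkfb4, with a mean of 7.07, was the listed gene that the filter on dim genes removed. The difference was 0.20 (interval 0.02 to 0.37; 1.15-fold; limma adjusted p = 0.469) with TCDD and 0.12 (interval −0.06 to 0.29) with Cl-BBQ. Pfkfb3, its more widely studied relative, differed by −0.12 (interval −0.31 to 0.07) with TCDD and −0.08 (interval −0.27 to 0.12) with Cl-BBQ. Pdk1, the kinase that shuts off pyruvate dehydrogenase, differed by −0.10 (interval −0.25 to 0.04) and −0.04 (interval −0.19 to 0.10), and Pdha1, a subunit of pyruvate dehydrogenase, by −0.04 in both (intervals −0.14 to 0.06).

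In the pentose phosphate pathway, 3 of 4 genes were measured. Tkt encodes transketolase, which links the pathway back to glycolysis, and read 10.95, 10.83, 11.05 and 10.71 in Cl-BBQ arrays, against 11.17, 11.01, 11.02 and 10.97 in vehicle arrays. Cl-BBQ replicate 3 lies among the vehicle arrays, and the other Cl-BBQ arrays lie below them. The difference was −0.16 with Cl-BBQ (interval −0.31 to −0.01; 1.12-fold lower; limma adjusted p = 0.598), −0.12 without vehicle replicate 1, and −0.07 with TCDD (interval −0.22 to 0.08). Pgd, a dehydrogenase of the NADPH-yielding branch, read 11.67, 11.61, 11.59 and 11.67 in TCDD arrays and 11.41, 11.45, 11.62 and 11.47 in Cl-BBQ arrays. Only Cl-BBQ replicate 3 reaches the TCDD range. The difference between the compounds, 0.15 (interval −0.01 to 0.30), was the largest of the 30 genes in that comparison, and its unadjusted p was 0.0589. From vehicle Pgd differed by 0.04 with TCDD and −0.11 with Cl-BBQ, and by 0.12 and −0.03 without vehicle replicate 1. Taldo1, transaldolase, differed from vehicle by 0.06 (interval −0.10 to 0.23) with TCDD and 0.01 (interval −0.16 to 0.18) with Cl-BBQ.

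Among the transcription factors and oxygen sensors, Myc had the smallest unadjusted p of the 30 genes. Myc encodes a transcription factor that raises the expression of glucose transporters and glycolytic enzymes in activated T cells. Its probe set (10424400; the gene is on chromosome 15) read 10.43, 10.49, 10.61 and 10.65 in TCDD arrays, against 10.95, 10.86, 10.81 and 10.67 in vehicle arrays. Every TCDD array lies below every vehicle array, by a narrow margin between TCDD replicate 4 and vehicle replicate 4. Such separation held for 2.65% of all genes in the lower direction and 3.15% in the higher one. The means were 10.54 ± 0.10 and 10.82 ± 0.12 (SD, n = 4 each), a difference of −0.28 (interval −0.44 to −0.11; 1.21-fold lower), with an unadjusted p of 0.00247 and a limma adjusted p of 0.127. With arrays weighted by their quality the difference was −0.30 and passed (limma adjusted p = 0.0445). Over all alternatives the adjusted p ran from 0.0445 to 0.373, which was the value without vehicle replicate 1. In Cl-BBQ arrays Myc read 10.54, 10.55, 10.80 and 10.74, which overlaps vehicle, with a difference of −0.17 (interval −0.33 to −0.00; limma adjusted p = 0.628). Between the compounds it was −0.11 (interval −0.28 to 0.05).

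Hif1a, the oxygen-regulated chain of HIF-1, read 12.11 to 12.27 in TCDD, 12.08 to 12.21 in Cl-BBQ and 12.08 to 12.16 in vehicle arrays. It differed from vehicle by 0.06 with TCDD (interval −0.03 to 0.15) and by 0.00 with Cl-BBQ (interval −0.09 to 0.10). HIF-1α is governed largely at the level of the protein, which these arrays do not measure. Egln1, the main prolyl hydroxylase that senses oxygen, had the smallest within-group SD of the 30 genes, 0.0437, and differed by −0.01 in both comparisons (intervals −0.13 to 0.10). Egln3, a hydroxylase whose gene HIF itself induces, differed by −0.10 with TCDD (interval −0.34 to 0.14) and −0.21 with Cl-BBQ (interval −0.45 to 0.03), with Cl-BBQ replicate 4 the lowest array, at 7.82, and vehicle replicate 4 the highest, at 8.61.

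Of the 3 other HIF-response genes, P4ha1 had the largest differences from vehicle. It encodes a prolyl hydroxylase subunit that modifies collagen and is a known HIF-1 target. It read 9.86, 9.82, 9.83 and 9.90 in Cl-BBQ arrays, against 9.75, 9.62, 9.68 and 9.48 in vehicle arrays. The Cl-BBQ arrays are tightly grouped and all lie above the vehicle arrays, a separation that 2.27% of all genes showed in the higher direction and 1.58% in the lower one. The difference was 0.22 (interval 0.06 to 0.38; 1.17-fold; unadjusted p = 0.0109; limma adjusted p = 0.435), and 0.26 without vehicle replicate 1 (limma adjusted p = 0.455). With TCDD, whose arrays read 9.62, 9.77, 9.77 and 9.93, it was 0.14 (interval −0.02 to 0.30; limma adjusted p = 0.681), and replicate 1 lay among the vehicle arrays. Vegfa, which encodes the vascular growth factor, differed by 0.08 with TCDD (interval −0.07 to 0.24) and −0.00 with Cl-BBQ (interval −0.16 to 0.16). Bnip3, a mitophagy receptor, differed by −0.07 (interval −0.26 to 0.13) and −0.06 (interval −0.25 to 0.14), and by 0.01 and 0.02 without vehicle replicate 1. The chosen Bnip3 probe set has 0 of 12 neighbours on chromosome 7, where the gene is, and the other one gave 0.06 (interval −0.19 to 0.30) and −0.10 (interval −0.35 to 0.14).

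**Figure D3:**
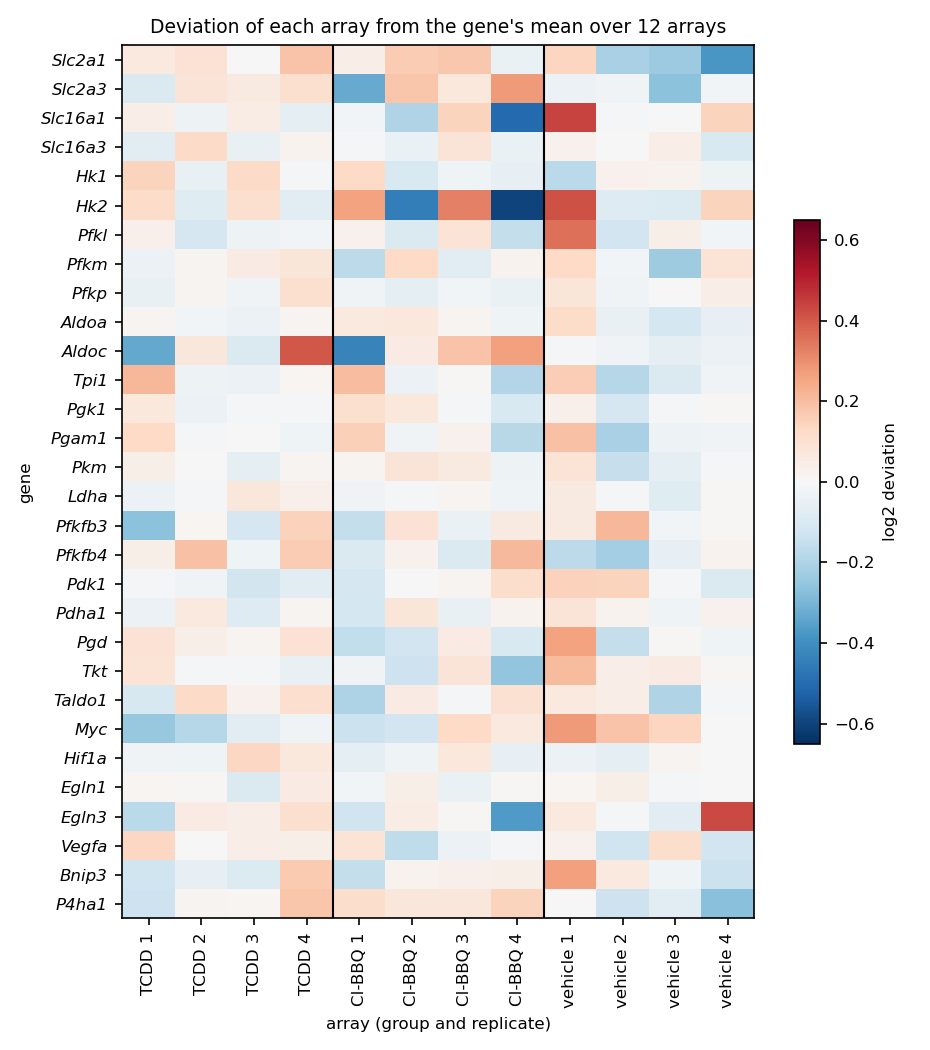
Deviation of each array from the gene's mean over all 12 arrays (colour, log2 units), with the 30 genes in rows and arrays in columns by group and replicate. Vehicle replicate 1, the highest vehicle array in 21 of the 30 rows, stands out in red, and Cl-BBQ replicate 4 is the darkest blue array in Slc16a1, Hk2 and Egln3.

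Unlike vehicle replicate 1, highest in 21 of the 30 genes, no treated array was the highest or lowest of its group in most genes. TCDD replicate 4 was the highest of its group in 12 of the 30 genes (29.5% of all genes) and TCDD replicate 1 the lowest in 12 (32.3%). Cl-BBQ replicate 4 was the lowest of its group in 12 (19.9%), among them Slc16a1, Hk2, Tkt and Egln3, and Cl-BBQ replicate 1 in another 12 (35.2%), among them Slc2a3, Aldoc and Pdk1. Cl-BBQ replicate 3 was the highest of its group in 11 (14.6%) and the lowest in 1 (20.0%). Without vehicle replicate 1, the median log2 difference over the 30 genes was 0.04 with TCDD and 0.02 with Cl-BBQ, and Slc2a1 with TCDD was the gene called.

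The rest of the pathway was read from 92 further genes in 6 lists. With TCDD 1 of the 92 rose (0.873% of all genes) and 1 fell (0.366%), and with Cl-BBQ 1 rose (0.145%) and 0 fell (0.0502%). Between the compounds none was called. An unadjusted p under 0.05 in the limma fit was reached by 16 of 92 with TCDD (8.69% of all genes), 9 of 92 with Cl-BBQ (7.91%) and 3 of 92 between the compounds (2.99%). The median log2 difference over the 92 genes was −0.00 with TCDD and −0.01 with Cl-BBQ. All calls were in the list of 27 other glycolysis and glycogen genes.

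Pygm, the muscle form of glycogen phosphorylase, which releases glucose units from glycogen, rose with both compounds. It read 8.04, 8.09, 8.24 and 8.10 in TCDD arrays, 8.07, 8.34, 8.20 and 8.10 in Cl-BBQ arrays and 7.72, 7.83, 7.74 and 7.74 in vehicle arrays. Every treated array lies above every vehicle array. Such separation in the higher direction held for 3.15% of all genes with TCDD and 2.27% with Cl-BBQ. The difference was 0.36 with TCDD (interval 0.20 to 0.52; 1.28-fold; limma adjusted p = 0.0212) and 0.42 with Cl-BBQ (interval 0.26 to 0.58; 1.34-fold; limma adjusted p = 0.0358), both against the same vehicle arrays. The TCDD call was lost after median centring (adjusted p = 0.0599) and without TCDD replicates 2, 3 or 4 or vehicle replicates 1, 3 or 4, each left out in turn, with adjusted p from 0.00721 to 0.105 over all alternatives. The Cl-BBQ call was lost without Cl-BBQ replicates 2, 3 or 4 or vehicle replicates 1, 3 or 4, with only the arrays of the groups compared and after median centring, with adjusted p from 0.0142 to 0.136. The difference itself stayed between 0.32 and 0.39 with TCDD and between 0.37 and 0.46 with Cl-BBQ.

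Eno3, the muscle form of enolase, fell with TCDD. It read 8.66, 8.58, 8.55 and 8.54 in TCDD arrays, against 9.42, 9.28, 8.86 and 8.83 in vehicle arrays. No array overlaps (2.65% of all genes separated with TCDD lower), and vehicle replicates 1 and 2 lie well above replicates 3 and 4. The difference was −0.51 (interval −0.77 to −0.26; 1.43-fold lower; limma adjusted p = 0.0428). The call was lost without any single TCDD replicate, without vehicle replicates 1 or 2 and after quantile normalization, with adjusted p from 0.00987 to 0.153, and the difference ran from −0.60 to −0.41. With Cl-BBQ, at 8.73, 8.74, 8.93 and 8.60, Eno3 differed by −0.35 (interval −0.60 to −0.10; limma adjusted p = 0.418). Ldhb, the lactate dehydrogenase chain of heart muscle, differed by −0.38 with TCDD (interval −0.64 to −0.13; limma adjusted p = 0.21).

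**Figure D4:**
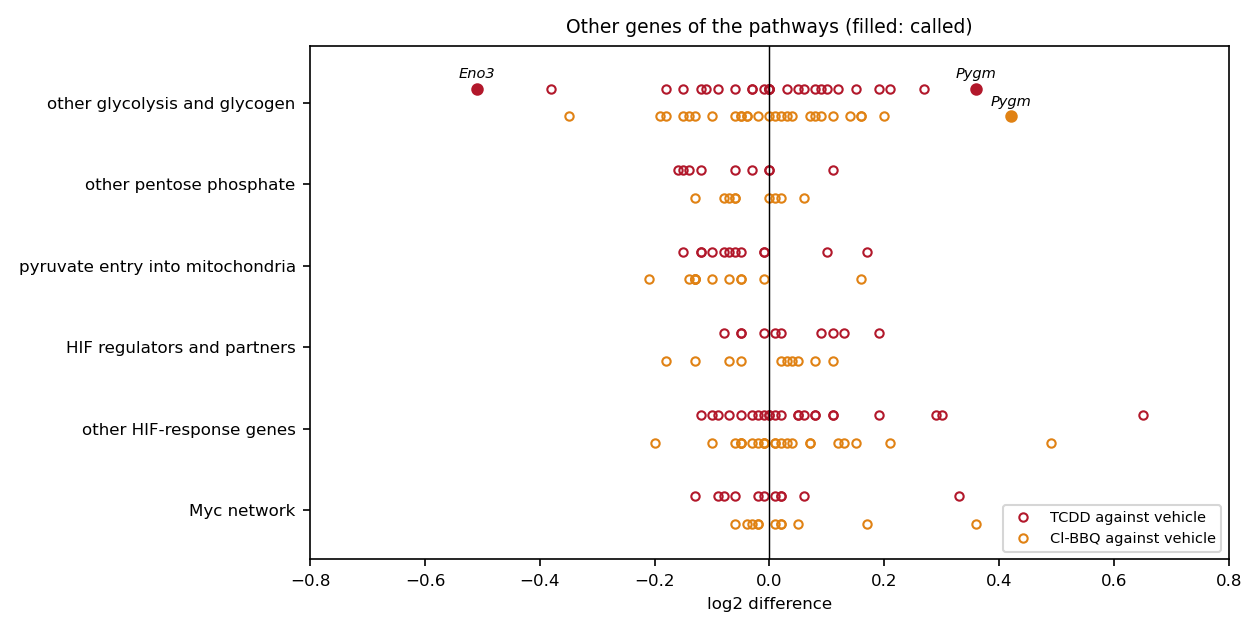
Log2 difference from vehicle of the 92 other pathway genes, in rows by list, for TCDD (red) and Cl-BBQ (orange); filled points are called. Pygm, at 0.36 and 0.42, and Eno3, at −0.51, are filled, and the open red point at 0.65 in the row of other HIF-response genes is Anxa2.

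In the other lists no gene was called. Of 9 other pentose phosphate genes, 1 lay above 0 with TCDD (52.1% of all genes) and 4 with Cl-BBQ (54.8%). Prps2, which makes the activated ribose of nucleotides, differed by −0.16 with TCDD (interval −0.25 to −0.07, limma adjusted p = 0.114) and −0.08 with Cl-BBQ. Of 12 genes of pyruvate entry into mitochondria, 2 lay above 0 with TCDD (52.1% of all genes) and 1 with Cl-BBQ (54.8%). Both comparisons share the vehicle arrays, and the counts of both lists were not repeated without vehicle replicate 1. Pdk4, a further pyruvate dehydrogenase kinase, differed by 0.17 with TCDD and Pdp1, the opposing phosphatase, by −0.15 with TCDD and −0.21 with Cl-BBQ. Of 10 HIF regulators and partners, Epas1, which encodes HIF-2α, differed by 0.19 with TCDD (interval 0.04 to 0.35; limma adjusted p = 0.387), Arnt by 0.13 (interval −0.02 to 0.28) and Ahr by −0.18 with Cl-BBQ (interval −0.36 to −0.00). Of 11 genes of the Myc network, Txnip, which restrains glucose uptake, differed by 0.33 with TCDD (interval 0.10 to 0.56; limma adjusted p = 0.237) and 0.36 with Cl-BBQ (interval 0.14 to 0.59; limma adjusted p = 0.287).

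The 23 other HIF-response genes held the largest difference. Anxa2, annexin A2, which HIF is known to induce in other tissues, read 10.98, 11.30, 11.39 and 11.47 in TCDD arrays, against 10.36, 10.77, 10.43 and 11.00 in vehicle arrays. Vehicle replicate 4 lies above TCDD replicate 1, and the other vehicle arrays lie below all TCDD arrays. The difference was 0.65 (interval 0.31 to 0.98; 1.56-fold; limma adjusted p = 0.0655) and was called in 6 of 17 alternatives, among them those without TCDD replicate 1 (adjusted p = 0.0332) and without vehicle replicate 4 (adjusted p = 0.0274). TCDD replicate 1 was the lowest TCDD array and vehicle replicate 4 the highest vehicle array. Leaving out either had to raise the difference, so these 2 calls are no separate support. With Cl-BBQ Anxa2 differed by 0.49 (interval 0.16 to 0.83; limma adjusted p = 0.366). P4ha2, the sister subunit of P4ha1, differed by 0.30 with TCDD (interval 0.10 to 0.51; limma adjusted p = 0.22). Its arrays did not overlap, as in 3.15% of all genes in the higher direction. P4ha2 was dim, at a mean of 7.09 in TCDD and 6.78 in vehicle arrays. Hmox1, haem oxygenase, had the largest difference of this list between the compounds, 0.27 (interval 0.10 to 0.44, limma unadjusted p = 0.00404). It was not called after adjustment over all genes. Ndrg1, a stress-response gene, differed by 0.21 with Cl-BBQ against vehicle (interval 0.04 to 0.38, limma adjusted p = 0.521).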

How the data were processed

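RNA of sorted donor CD4+ T cells was measured on 12 Affymetrix mouse gene arrays, 4 per group by the treatment labels. The deposited table holds log2 values of 35556 probe sets that the authors made by robust multi-array average (RMA), per the submitters' processing notes; the log2 scale was read from the values (2.49 to 14.2, array medians 7.11 to 7.24). The sources used here do not give the software version or probe library. The labels name a 3′ labelling kit, whereas the probe table is that of a whole-transcript array.

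Probe sets were named from the platform annotation: 21789 carried 1 gene symbol, 1621 several and 12146 none. The single-symbol probe set with the highest mean stood for each gene, leaving 19938. A model with a mean per group was fitted to all 12 arrays with limma 3.58.1 under R 4.3.3, giving 9 residual degrees of freedom, with an intensity trend, two-sided tests and Benjamini-Hochberg adjustment over all genes. The fit was tested on simulated data. Precision is limited by how many arrays there are.

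The named genes were all listed genes, called genes of the further pathway lists and up to 2 per list and comparison with the largest difference. The genes and lists were chosen with earlier results of these data known. Same-numbered TCDD and Cl-BBQ arrays deviated together in all 4 pairs (correlations 0.606, 0.113, 0.157 and 0.365), as did 2 of 4 TCDD and vehicle pairs and 0 of 4 Cl-BBQ and vehicle pairs at over 0.1; labels do not say what the numbers share. Alternatives were no trend, array weights, a replicate block, 2-group fits, median centring, quantile normalization, a filter on dim genes, other choices of probe set and leaving out each array; probe sets on the gene's own chromosome were added after seeing the data.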

Additional observations from a re-analysis of the deposited data

Results flagged for a closer look

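In 3 of 156 groups of 4 arrays tested, 2 of them among the 90 groups of the listed genes, a single array lay far from the rest of its group; chance alone gives about 1 in 20. Slc2a3 read 7.95 in vehicle replicate 3, with the nearest vehicle array at 8.18. Bnip3 read 7.99 in Cl-BBQ replicate 1, with the nearest Cl-BBQ array at 8.16. Pygm read 7.83 in vehicle replicate 2, with the nearest vehicle array at 7.74, which is on the side of the treated arrays.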

How the results depend on the processing

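Over 18 or fewer alternatives per result, the 90 differences of the listed genes had 1617 alternative values. Of these, 107 changed sign, none of them called, and 2 became called. Listed genes called with TCDD numbered 0, and 1 with array weights (Myc, lower); leaving out each array gave 0 to 1, the 1 being Slc2a1 without vehicle replicate 1. With Cl-BBQ and between the compounds the number was 0 under every alternative. The filter on dim genes removed 1 listed gene, Pfkfb4, and kept 29. Epas1, P4ha2 and Pdk4 of the further pathway lists were also dim and removed by it. Other pathway genes called with TCDD numbered 2, but 5 with array weights, 5 from a fit of the groups compared, 1 after median centring and 0 to 2 with each array left out. With Cl-BBQ they numbered 1, but 2 with the replicate block, 0 from a fit of the groups compared, 0 after median centring and 0 to 1 with each array left out. The replicate block left 0 listed genes called in all comparisons. Over all genes, 247 were called with TCDD, but 391 with array weights, 397 with the replicate block and 150 to 227 with each array left out, the lowest without TCDD replicate 3. With Cl-BBQ 39 were called, but 18 without a trend, 111 with the block, 11 from 2 groups, 13 after median centring, 96 after quantile normalization and 3 to 61 with each array left out (61 if Cl-BBQ replicate 1 is dropped, 3 for Cl-BBQ replicate 2, 16 for Cl-BBQ replicate 4, 9 for vehicle replicate 1 and 4 for vehicle replicate 4). Between the compounds 3 were called, but 0 without a trend, from 2 groups and after quantile normalization, 9 with array weights, 5 with the block and 0 to 7 with each array left out (7 if Cl-BBQ replicate 1 is dropped, 1 for Cl-BBQ replicate 3, and 0 for Cl-BBQ replicate 4 or any single TCDD replicate). Bnip3 moved to 0.16 between the compounds with the probe set on its own chromosome. The causes were not tested.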
